A study of Homo sapiens with 8 samples.

Results

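The genes described here encode 10 factors of productive elongation by RNA polymerase II: *PAF1*, *CTR9*, *LEO1*, *CDC73* and *RTF1*, which form or join the PAF1 complex, the histone chaperone gene *SUPT6H*, the TFIIS gene *TCEA1*, and the super elongation complex genes *ELL*, *ELL2* and *AFF4*. They were chosen by name, 1 row per gene, as the transcript with the largest span, and all 10 were found among 19351 gene names and passed the filter on low counts that kept 17782 genes. Nascent RNA was read by GRO-seq, in which nuclei extend for 5 min, with Br-UTP, the RNA that engaged polymerases had begun. The cells were SV40-immortalised human fetal lung fibroblasts, which the labels call MRC5 and the methods MRC5_VA, either labelled KD (knockdown of *ZFAS1*, a long noncoding RNA, by a lentiviral short hairpin per the methods) or labelled WT. All were held for 3.5 h in 100 µM DRB, an inhibitor of CDK9 that keeps polymerase near the start of genes, then given 10 J/m2 of UV-C or no UV, and collected 40 or 10 min after DRB was washed out.

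The 8 libraries are KD with UV at 40 and 10 min, KD without UV at 40 and 10 min, WT with UV at 40 and 10 min, and WT without UV at 40 and 10 min, 1 library each, so a difference within a single pair has no replicate check, and the intervals given for pairs cover counting error only. Depth over genes ran from 10.2 to 21.1 M reads per library, highest in WT without UV at 40 min. The targeted gene *ZFAS1* had 921 and 693 CPM (reads scaled to a common library size by TMM) in KD with UV at 40 and 10 min, and 1598.4 and 704 CPM in KD without UV, against 586 and 633 CPM in WT with UV and 1812.3 and 507 CPM in WT without UV. The libraries labelled KD did not have less of it (log2 change 0.20 ± 0.36, SE, edgeR adjusted p = 1.0), and since a short hairpin acts on finished RNA, nascent reads do not check that label. The fibroblast markers were the highest of the marker lists in every library, with a summed density of 38.7 to 174 CPM per kb over 9 genes, led by *VIM*, against 2.31 to 7.74 for 5 epithelial markers, 0.541 to 2.19 for 4 endothelial markers and 0.488 to 1.94 for 4 immune markers, and no marker was at 0 in all libraries.

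After DRB is removed, CDK9, the kinase of P-TEFb, phosphorylates the polymerase and its pausing factors, and polymerases move into the gene body as a wave. The PAF1 complex travels with them, is needed for ubiquitylation of histone H2B and for the chromatin marks that follow it, and helps release paused polymerase. SPT6, the product of *SUPT6H*, holds histones and binds the polymerase, TFIIS rescues polymerase that has backtracked, and the super elongation complex, built on the *AFF4* scaffold with *ELL* or *ELL2*, brings P-TEFb to genes. UV-C makes bulky lesions that stall polymerase on the template strand, so a long gene takes more hits than a short one.

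For 7 of the genes RefSeq (GRCh38.p14) gave the 250 bases before the transcription start. The 3 stretches below are the upstream letters of the genes with the smallest p for the KD by UV term described further on whose windows left at least 100 bases outside any exon of GENCODE v44, and they are shown because that term was positive in all 3, though only *PAF1* among them passed its test. *SUPT6H* is not printed because exons of *SDF2*, a gene on the other strand, cover most of its window. Each is written 5′ to 3′ on the strand of the gene, and capitals mark GGGCGG (the GC box), CCAAT and CCGGAA (the core of an ETS site) on either strand.
*PAF1* upstream, 49 to 196 bases before the start, chr19:39391155-39391302, minus strand: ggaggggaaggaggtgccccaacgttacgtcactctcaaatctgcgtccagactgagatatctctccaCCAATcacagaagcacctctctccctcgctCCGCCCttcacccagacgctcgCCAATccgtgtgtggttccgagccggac
*RTF1* upstream, 1 to 200 bases before the start, chr15:41416895-41417094, plus strand: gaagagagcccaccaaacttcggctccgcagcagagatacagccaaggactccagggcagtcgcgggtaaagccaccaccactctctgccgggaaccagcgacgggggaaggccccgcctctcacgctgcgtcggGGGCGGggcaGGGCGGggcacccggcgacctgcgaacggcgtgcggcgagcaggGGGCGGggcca
*CTR9* upstream, 1 to 200 bases before the start, chr11:10751046-10751245, plus strand: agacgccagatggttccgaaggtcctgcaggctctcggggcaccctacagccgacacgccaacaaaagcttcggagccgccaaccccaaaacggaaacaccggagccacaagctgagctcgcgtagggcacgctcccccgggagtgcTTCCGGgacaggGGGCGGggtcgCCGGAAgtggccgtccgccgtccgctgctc
All 7 windows of 250 bases held GGGCGG on at least 1 strand, which 42.6% of 35116 RefSeq promoters held. CCAAT was in 1 of the 7 (*PAF1*) against 32% of all promoters, CCGGAA in 2 (*CTR9* and *SUPT6H*) against 14.5%, CACGTG in 1 (*AFF4*) against 6.34%, and TATAAA in 0 against 10.7%. These are matches of letters and say nothing of which factor binds. The RefSeq start of *RTF1* lies 9 bases before that of its deposited transcript, and those of *PAF1* and *CTR9* are the same.

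The genes differ widely in span and in level (hg38 coordinates, whole transcript with introns). *PAF1* is the shortest, 5.48 kb on chromosome 19 (39385629 to 39391106, minus strand). *CTR9* spans 28.5 kb on chromosome 11 (10751246 to 10779746, plus strand), *LEO1* 33.8 kb on chromosome 15 (51938025 to 51971778, minus strand) and *SUPT6H* 40.5 kb on chromosome 17 (28662205 to 28702679, plus strand). *TCEA1* spans 55.9 kb on chromosome 8 (53966552 to 54022448, minus strand), and *RTF1* 66.5 kb on chromosome 15 (41417104 to 41483563, plus strand). The longest are *ELL2*, 76.8 kb on chromosome 5 (95885098 to 95961851, minus strand), *ELL*, 79.5 kb on chromosome 19 (18442665 to 18522116, minus strand), *AFF4*, 88.2 kb on chromosome 5 (132875395 to 132963634, minus strand) and *CDC73*, 133 kb on chromosome 1 (193121958 to 193254815, plus strand). Their median span of 61.2 kb stands beside 27.5 kb for all genes tested.

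Per kb of span, *CDC73* had the highest mean density over the 8 libraries, 7.69 ± 2.66 CPM per kb (SD over the conditions), and *ELL2* came next at 6.74 ± 5.8. *AFF4* (2.53 ± 0.914), *CTR9* (2.36 ± 0.667), *TCEA1* (2.15 ± 0.721), *PAF1* (1.79 ± 1.03) and *SUPT6H* (1.61 ± 0.639) lay close together, and neighbours among these 5 changed places between libraries, the upper one being higher in only 4 or 5 of 8. *RTF1* (0.771 ± 0.32), *ELL* (0.733 ± 0.468) and *LEO1* (0.538 ± 0.385) were lowest. *SUPT6H* was above *RTF1* in 8 of 8 libraries and *ELL2* above *AFF4* in 8 of 8, and those were the only steps in the order that held in every library. The median of the 10 mean densities was 1.97 CPM per kb, against 0.532 for all genes tested. The only gene in the tables whose name fits an olfactory receptor, *OR51B5*, which fibroblasts do not use, gave 2.16 to 3.81 reads per kb, and the members' median was 3.36 to 26.7 times that density, lowest in KD without UV at 10 min and highest in WT without UV at 40 min. *LEO1* lay at 0.773 to 1.13 times it in the libraries at 10 min other than WT without UV (2.11 times), so its level in those 3 was close to that of *OR51B5*. *RTF1* and *ELL* were also low in KD without UV at 10 min, with 320 reads over 66.5 kb and 486 over 79.5 kb. With the *OR51B5* density subtracted, the log2 ratio of KD over WT at 10 min without UV moved from -1.10 to -2.87 in *RTF1*. In *ELL* it moved from -0.09 to -0.72.

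**Figure D1:**
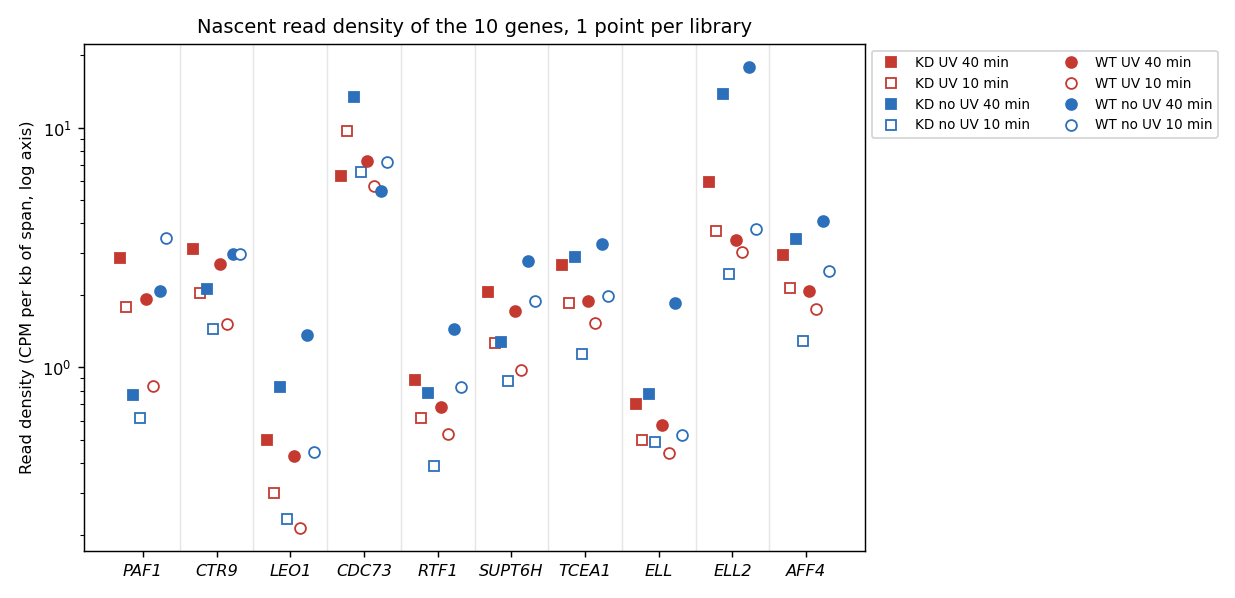
Read density of the 10 genes in CPM per kb of span (log axis), 1 point per library, with squares for KD, circles for WT, red for UV, blue for no UV, and filled symbols for 40 min. WT without UV at 40 min holds the highest point for 7 of the 10 genes and KD without UV at 10 min the lowest for 7, while *CDC73* runs from 5.42 to 13.4 in another order.

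The KD by UV term asks whether the difference between KD and WT was itself different with UV and without it. Without UV most of the 10 genes had fewer nascent reads in KD than in WT, and with UV they had more. Without UV *OR51B5* went the other way, with 3.81 and 3.76 reads per kb (not scaled) in KD at 40 and 10 min, against 2.21 and 2.16 in WT. With UV it had 2.78 and 3.12 in KD, against 2.77 and 3.08 in WT. The part of this background in the term was not tested. *PAF1* and *SUPT6H* passed the test across all genes (edgeR quasi-likelihood test, Benjamini-Hochberg adjusted p under 0.05) with a positive term, 2 of 10 members, where 5.93% of all genes tested were called with a positive term. Over all genes 1055 terms were called positive and 776 negative, and with library totals in place of TMM 920 and 1999. As in any bulk sample, fewer cells that transcribe a gene and less transcription per cell cannot be told apart. The p-values rest on 3 residual degrees of freedom and on the spread left by terms not in the fit, as no condition was repeated.

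*PAF1*, the subunit the complex is named for, had 15.7 and 9.74 CPM in KD with UV at 40 and 10 min, against 10.5 and 4.59 CPM in WT with UV. Without UV it had 4.18 and 3.37 CPM in KD at 40 and 10 min, against 11.4 and 19.1 CPM in WT. The 2 KD libraries without UV were thus the lowest of all 8 in CPM, with 48 and 42 reads, just below WT with UV at 10 min (52 reads). WT without UV at 10 min was the highest in CPM, with 196 reads, against 233 in the deeper library of WT without UV at 40 min. KD over WT was 1.49-fold (95% interval 1.2 to 1.85) and 2.12-fold (1.52 to 3) at 40 and 10 min with UV, and 0.367-fold (0.263 to 0.502) and 0.177-fold (0.123 to 0.247) without UV. The KD by UV term was 2.82 ± 0.61 on the log2 scale (SE, edgeR adjusted p = 0.0392). The call is lost without any 1 of the 4 KD libraries, with an adjusted p of 0.0529 to 0.121 and a term of 2.55 to 3.01, and is kept without any 1 of the WT libraries.

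*SUPT6H*, which encodes the histone chaperone SPT6, had 83.7 and 50.8 CPM in KD with UV at 40 and 10 min, against 69.7 and 39.4 CPM in WT with UV. Without UV it had 51.7 and 35.6 CPM in KD, against 113 and 76.4 CPM in WT. The WT libraries without UV lay above the KD libraries of the same time by over 2-fold, and with UV the order was turned. Its term was 1.43 ± 0.43 (edgeR adjusted p = 0.0492), at the edge of the threshold. Leaving out KD with UV at 40 or 10 min, KD without UV at 40 or 10 min, or WT with UV at 40 or 10 min ended the call (adjusted p = 0.0944 to 0.187), as did scaling to library totals (0.0522), scaling after the filter (0.0512), no filter (0.05) and the shortest transcript of each gene (0.101).

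The other 8 did not pass. *RTF1*, a part of the complex that recruits the machinery of H2B ubiquitylation, had 59 and 41 CPM in KD with UV at 40 and 10 min, against 45.4 and 35.1 CPM in WT with UV, and 52.1 and 25.7 CPM in KD without UV, against 96.3 and 55.2 CPM in WT without UV. Its term was 1.28 ± 0.44 (edgeR adjusted p = 0.0632), under the threshold with DESeq2 (0.0306). DESeq2 called many genes for this term, 2411 positive and 2615 negative of 17782. *CTR9*, the scaffold subunit of the complex, had 88.5 and 58.2 CPM in KD with UV, against 76.8 and 43.3 CPM in WT with UV, and 60.8 and 41.1 CPM in KD without UV, against 84.8 and 84.5 CPM in WT without UV. Its term was 1.08 ± 0.45 (adjusted p = 0.0985 in edgeR). *LEO1*, another subunit of the complex, had a term of 1.16 ± 0.49 (adjusted p = 0.1 in edgeR), and those of *ELL* (0.99), *AFF4* (0.94), *ELL2* (0.92) and *TCEA1* (0.84) had adjusted p-values between 0.169 and 0.319.

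Read pair by pair, 9 of the 10 genes were below WT in KD in both pairs without UV and above WT in both pairs with UV, and 34.6% of all genes tested had those 4 signs. *CDC73* was the exception. For *ELL* the counting interval included no change at 10 min, both without UV (0.94-fold, 0.824 to 1.07) and with UV (1.13-fold, 0.989 to 1.3). For *LEO1* it did so at 40 min with UV (1.17-fold, 0.959 to 1.42). The median term of the 10 was 1.04, against 0.14 over all genes tested, and 9 of 10 were positive, against 53.1%. At an unadjusted p under 0.05 stood 5 of the 10 and 39.1% of all genes, so a small p was common in this comparison and not particular to these genes.

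The size of these ratios went with span among genes at large. Over genes with a mean of at least 10 CPM, the median log2 ratio of KD over WT at 10 min without UV was -0.92 for 944 genes of 1 to 10 kb, -0.40 for 2615 genes of 30 to 60 kb and -0.03 for 1757 genes of 100 to 200 kb, and at 10 min with UV it was 0.50, 0.19 and 0.02 in the same classes. *PAF1*, in the shortest class, stood at -2.50 and 1.09 in those pairs. Set against the median of genes of like span, 1 of the 10 members was above it at 10 min without UV and 2 at 40 min, while 10 and 7 were above it with UV at 10 and 40 min. The part of span in the term was not tested.

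**Figure D2:**
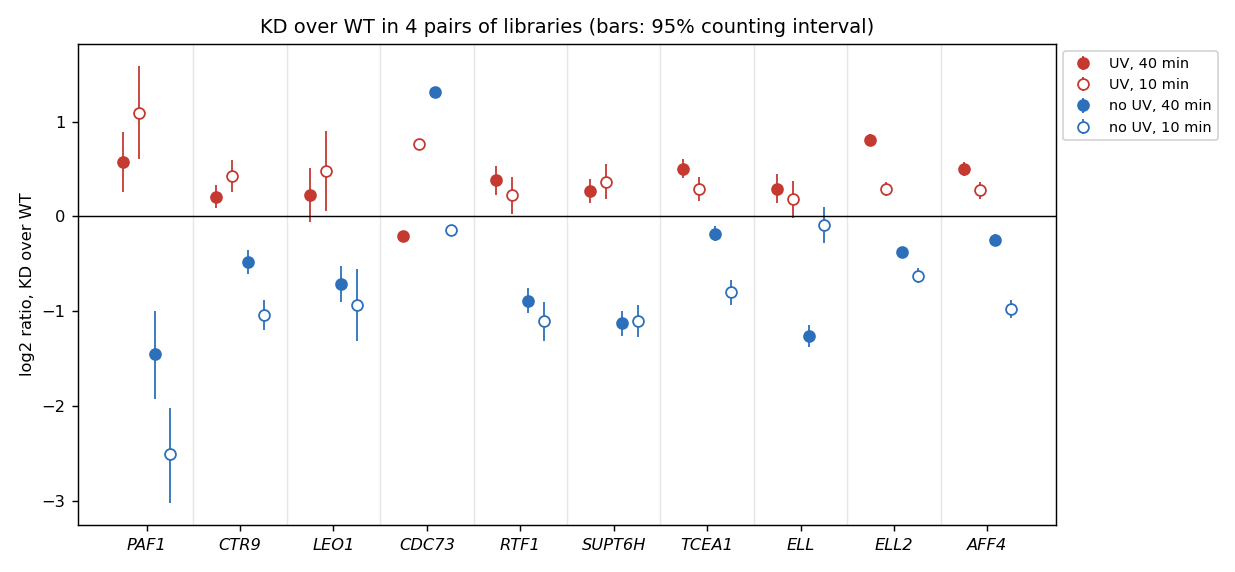
Log2 ratio of KD over WT for the 10 genes in 4 pairs of libraries, red with UV, blue without, filled at 40 min and open at 10 min, bars the 95% counting interval. For 9 genes both red points lie above 0 and both blue points below it, widest apart in *PAF1* (1.09 and -2.50 at 10 min), and *CDC73* alone breaks the pattern. The bars of *ELL* at 10 min and of *LEO1* with UV at 40 min include 0.

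**Figure D3:**
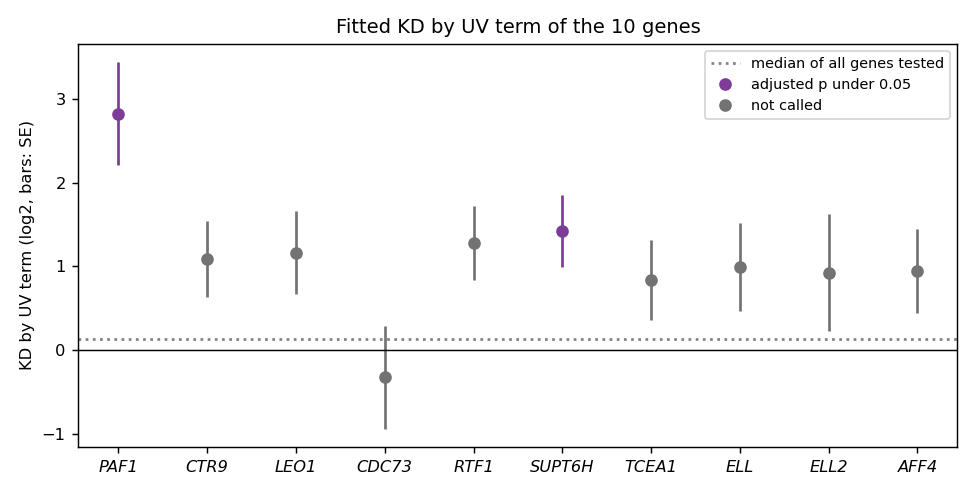
Fitted KD by UV term of the 10 genes on the log2 scale with its SE, purple where the adjusted p was under 0.05, with the median of all genes tested (0.14) dotted. *PAF1* (2.82) and *SUPT6H* (1.43) passed, and *CDC73* (-0.33) is the one negative term.

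*CDC73*, which encodes parafibromin, did not follow its partners in the complex. It had 836 and 1285.5 CPM in KD with UV at 40 and 10 min, against 966 and 758 CPM in WT with UV. Without UV it had 1784.5 and 867 CPM in KD, against 720 and 958 CPM in WT. The highest library was KD without UV at 40 min and the lowest WT without UV at 40 min, the library in which 7 of the other members peaked. Its term was -0.33 ± 0.61 (edgeR adjusted p = 0.694), and turns positive when KD without UV at 40 min (0.21), KD with UV at 40 min (0.17) or WT without UV at 40 min (0.04) is left out. Across the 8 libraries its log2 CPM had a Pearson r of -0.02 with the mean profile of the other 9, against 0.50 for *PAF1* and 0.78 to 0.97 for the rest, a description over 8 libraries that differ in condition and depth. *B3GALT2*, 7.61 kb long and inside the *CDC73* span on the other strand, had 0 to 5 reads, so the reads counted for *CDC73* were not counted for the other strand there. Counts are given per transcript and *CDC73* has 1 transcript in the tables, so where along its 133 kb the reads lie was not analysed here.

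By time after DRB removal, most of these genes had more nascent reads at 40 than at 10 min, and none passed the test over all 8 libraries, 0 of 10 where 0.517% of all genes tested were called, all of them upward. At an unadjusted p under 0.05 stood 4 of the 10 members in edgeR, against 21.9% of all genes. DESeq2 called 2 of the 10 upward, *LEO1* and *ELL2*, where of all 17782 genes it called 1502 upward and 126 downward. All 10 changes were positive, from 0.12 (*CDC73*) to 1.41 (*ELL2*), with a median of 0.68 against -0.09 over all genes tested. In single pairs, 8 of the 10 were above in all 4 pairs, against 28.2% of all genes, and the exceptions were *PAF1* and *CDC73*.

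*ELL2*, an ELL family factor also known for its part in immunoglobulin RNA processing in plasma cells, had the largest time change. It had 456 CPM at 40 min against 283 CPM at 10 min in KD with UV, and 1057.6 against 188 CPM in KD without UV. In WT with UV it had 261 CPM at 40 min against 232 CPM at 10 min, and in WT without UV 1371.1 against 290 CPM. The 2 unirradiated libraries at 40 min stood far above the other 6, and the time groups overlapped through WT with UV. The ratio of 40 over 10 min was 5.63 (95% interval 5.38 to 5.88) in KD and 4.73 (4.55 to 4.91) in WT without UV, and 1.61 (1.55 to 1.68) in KD and 1.12 (1.07 to 1.18) in WT with UV. The additive change was 1.41 ± 0.43 (edgeR adjusted p = 0.0917).

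*LEO1* had 16.8 CPM at 40 min against 10.1 CPM at 10 min in KD with UV, and 28.1 against 7.86 CPM in KD without UV. In WT it had 14.4 CPM at 40 min against 7.24 CPM at 10 min with UV, and 45.9 against 15 CPM without UV. Every pair was higher at 40 min, by 1.66 to 3.57-fold with no background subtracted (with the *OR51B5* density subtracted, the log2 ratio became 3.10 in place of 0.73 in KD with UV and 2.42 in place of 1.61 in WT without UV, and nothing was left at 10 min in the other pairs), and the change was 1.27 ± 0.35 (edgeR adjusted p = 0.0735). *ELL*, the founding member of the ELL family, had 56, 61.6, 45.7 and 148 CPM in the libraries at 40 min (KD with and without UV, then WT with and without UV), against 39.7, 39, 35 and 41.4 CPM at 10 min. It was the 1 member whose 4 libraries at 40 min were all above its 4 at 10 min, as 12.2% of all genes tested were, and its change was 0.89 ± 0.35 (adjusted p = 0.168 in edgeR).

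Within the unirradiated libraries alone, in an edgeR fit with 1 residual degree of freedom, 5 of the 10 rose with time: *ELL2* (2.37 ± 0.56, adjusted p = 0.0069), *LEO1* (1.72 ± 0.33, 0.00211), *ELL* (1.25 ± 0.36, 0.0202), *TCEA1* (1.03 ± 0.37, 0.0462) and *RTF1* (0.91 ± 0.32, 0.0442). In that fit 14.7% of all genes were called upward. In the like fit of the irradiated libraries 4 of the 10 rose: *PAF1* (0.81 ± 0.23, 0.0365), *LEO1* (0.75 ± 0.20, 0.033), *SUPT6H* (0.67 ± 0.16, 0.0208) and *CTR9* (0.61 ± 0.16, 0.0294), where 11.1% of all genes were called upward. The genes called without UV span 33.8 to 79.5 kb and those called with UV 5.48 to 40.5 kb, with *LEO1* in both. A call in one set and not in the other does not show a difference. The difference itself, the UV by time term, was called for 0 of 10 members and for 0 of all genes tested (0%), while 472 genes had an unadjusted p under 0.05, and ran from -1.87 ± 0.68 for *ELL2* (unadjusted p = 0.0217, adjusted p = 0.964 in edgeR) to 1.28 ± 1.10 for *PAF1*. The fit of that term leaves the KD by UV term in its spread, so a count of 0 does not show that no difference exists.

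**Figure D4:**
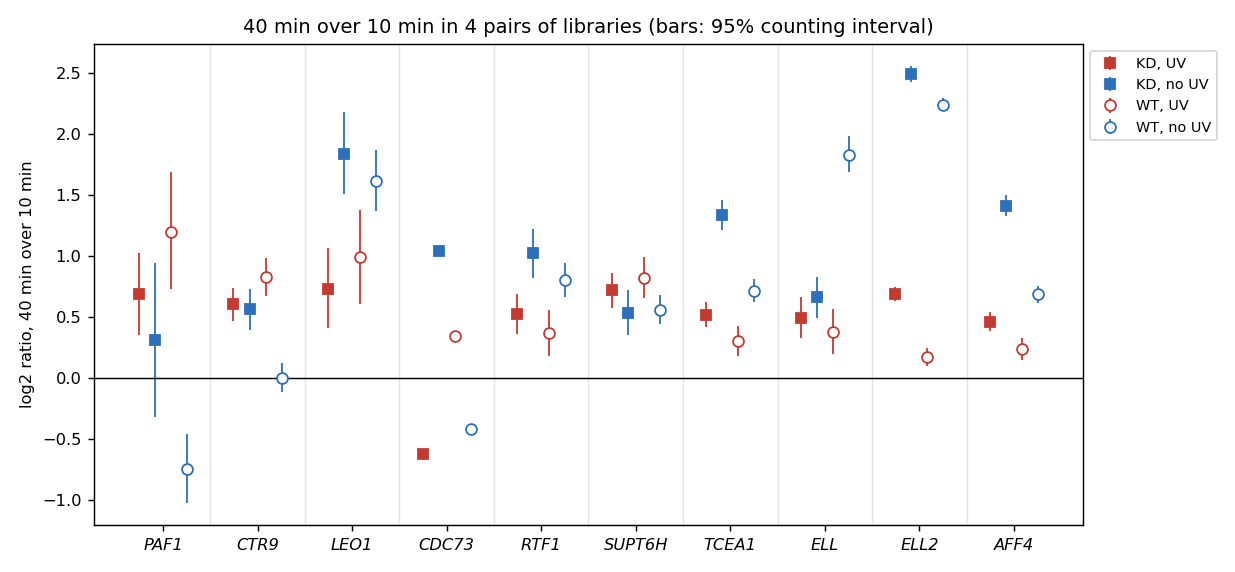
Log2 ratio of 40 over 10 min in 4 pairs of libraries, squares for KD, circles for WT, red with UV and blue without, bars the 95% counting interval. *ELL2* lies highest without UV (5.63-fold in KD, 4.73-fold in WT) and near 0 in WT with UV, while *PAF1* is below 0 in WT without UV (0.598-fold).

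*AFF4*, the scaffold of the super elongation complex, has 4 transcripts in the tables that begin within the same short stretch and end at different distances, so that differences of their counts give the reads in 4 successive parts of the gene. Over the whole gene it had 260 and 188 CPM in KD with UV at 40 and 10 min, 303 and 114 CPM in KD without UV, 184 and 156 CPM in WT with UV, and 359 and 223 CPM in WT without UV. Its time change over the whole span was 0.68 ± 0.34 (edgeR adjusted p = 0.242), and the parts did not share it equally.

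In the first 36.9 kb the ratio of 40 over 10 min was 1.63 (95% interval 1.48 to 1.79) in KD with UV, 1.94 (1.75 to 2.15) in KD without UV, 1.84 (1.65 to 2.06) in WT with UV and 1.4 (1.28 to 1.52) in WT without UV. Between 36.9 and 59.8 kb the unirradiated libraries stood apart from the irradiated ones, with 6.71-fold (5.7 to 7.93) in KD and 5.07-fold (4.36 to 5.92) in WT without UV, against 1.49-fold (1.26 to 1.76) in KD and 1.09-fold (0.897 to 1.33) in WT with UV. In density this part had 4 CPM per kb at 40 min against 0.597 at 10 min in KD without UV, and 4.06 against 0.801 in WT without UV. Its 22.8 kb held only 170 to 226 reads in the libraries at 10 min, where *OR51B5* gave 2.16 to 3.76 reads per kb, and no background was subtracted from these ratios. With UV this part had 1.25 against 0.838 CPM per kb in KD and 0.78 against 0.715 in WT, where the interval of the ratio includes no change. The next 12 kb, to 71.8 kb, behaved likewise, at 5.13-fold and 2.2-fold in KD and WT without UV against 1.36-fold and 1.02-fold with UV. The last 16.4 kb was dense at both times, from 2.66 to 7.06 CPM per kb over the 8 libraries, and its ratios lay between 0.903 and 1.67.

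*ELL* allows a coarser reading, since a shorter transcript of it covers the stretch from 46.2 to 77.4 kb. There the ratio of 40 over 10 min was 0.809 (0.638 to 1.02) in KD with UV, 1.44 (1.16 to 1.8) in KD without UV, 0.759 (0.579 to 0.994) in WT with UV and 3.92 (3.21 to 4.83) in WT without UV. Over the rest of the gene, 48.3 kb that is nearly all upstream, the ratios were 1.69, 1.64, 1.54 and 3.43 in the same order. In ratio the downstream stretch was thus higher at 40 min in both unirradiated pairs and in neither irradiated pair. Its 31.2 kb held 106 to 195 reads in every library but WT without UV at 40 min (857 reads). Those densities lie little above that of *OR51B5* (2.16 to 3.81 reads per kb). Ratios among those libraries therefore set values near background against each other. As a setting, 124 other genes of over 60 kb had a shorter transcript that shares the start, as in *AFF4* and unlike *ELL*. Their first part had median log2 ratios of 0.50, 1.04, 0.30 and 0.83 (KD with and without UV, then WT with and without UV). The rest had -0.01, 0.30, -0.03 and -0.08 in the same order.

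**Figure D5:**
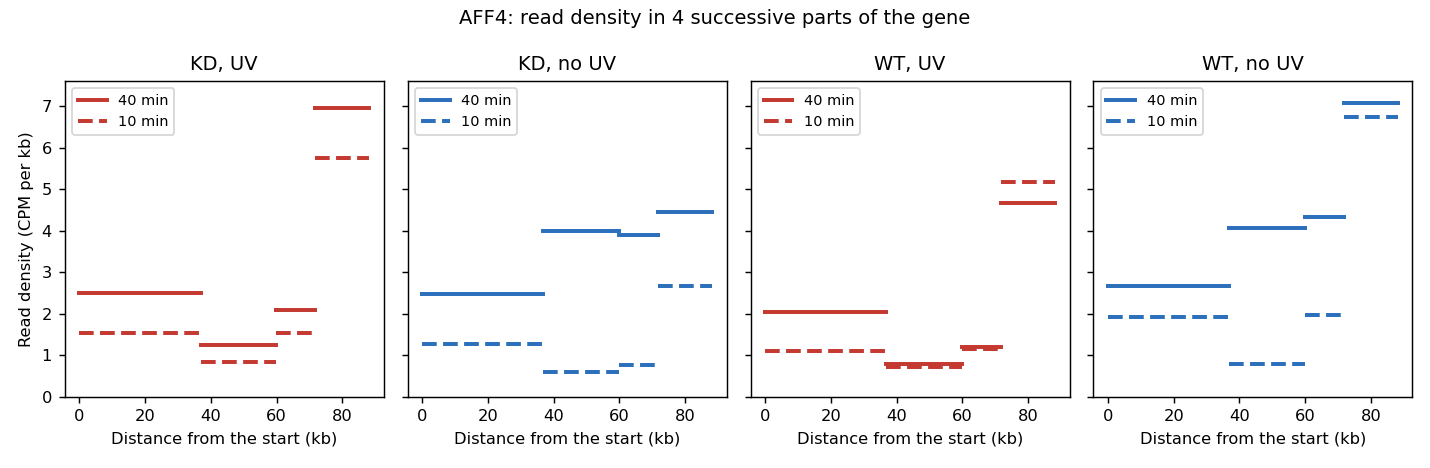
Read density of *AFF4* (CPM per kb) in 4 successive parts of the gene by distance from its start in kb, 1 panel per condition, with 40 min as solid and 10 min as dashed lines. Between 36.9 and 71.8 kb the solid line is far above the dashed one without UV (4.06 against 0.801 CPM per kb in WT between 36.9 and 59.8 kb) and close to it in WT with UV.

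The comparison of UV with no UV over all 8 libraries called 0 of 10 members and 0 of all genes tested (0%), while 300 genes in edgeR and 517 in DESeq2 had an unadjusted p under 0.05, and DESeq2 also called 0. That fit leaves the KD by UV term in its spread, a term with an unadjusted edgeR p under 0.05 in 39.1% of all genes. These counts of 0 therefore do not show that UV changed nothing. The members' changes ran from -0.83 (*ELL2*) to 0.31 (*PAF1*), with a median of -0.19 against 0.12 over all genes. That median rests on single libraries, at 0.014 with 5 of 10 positive without WT with UV at 40 min and -0.45 with 0 of 10 positive without KD without UV at 10 min. Single pairs read differently in KD and WT. In both WT pairs 9 of the 10 were lower with UV, against 34.7% of all genes, with medians of -0.59 at 10 min and -0.88 at 40 min. In KD at 10 min all 10 were higher with UV, against 55.8% of all genes, with a median of 0.58. In KD at 40 min 4 of 10 were higher, with a median of -0.13. The KD by UV term, which tests this difference, was called positive for 2 of 10 members and 5.93% of all genes. Within WT alone 0 of 10 passed, where 0.0225% of all genes were called downward, and the values ran from -1.49 (*LEO1*) to -0.07 (*CDC73*). Within KD alone *PAF1* was higher with UV (1.56 ± 0.30, adjusted p = 0.00388 in edgeR), 1 of 10 where 5.14% of all genes were called upward. The fits within WT and within KD have 1 residual degree of freedom, and *PAF1* had only 48 and 42 reads in KD without UV.

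Single ratios of UV over no UV in WT differed between the times. At 40 min *ELL2* was at 0.19-fold (95% interval 0.183 to 0.197), *ELL* at 0.31-fold (0.283 to 0.338) and *LEO1* at 0.313-fold (0.267 to 0.366). *CTR9* and *PAF1*, the shortest, were near 1 there, at 0.906-fold (0.837 to 0.979) and 0.923-fold (0.743 to 1.14), and *CDC73*, the longest, was higher with UV, at 1.34-fold (1.31 to 1.37). At 10 min *PAF1* was lowest, at 0.241-fold (0.174 to 0.328), followed by *LEO1* at 0.483-fold (0.365 to 0.636) and *CTR9* at 0.512-fold (0.458 to 0.573). In WT with UV at 10 min *LEO1* lay at 0.789 times the density of *OR51B5*, and nothing was left once that density was subtracted. *CDC73* at 0.791-fold (0.769 to 0.815), *ELL2* at 0.799-fold (0.758 to 0.842) and *ELL* at 0.846-fold (0.736 to 0.972) were the nearest to 1.

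KD against WT over all 8 libraries likewise called 0 of 10 members and 0 of all genes (0%), while 83 genes in edgeR and 179 in DESeq2 had an unadjusted p under 0.05, and DESeq2 also called 0. Here too the KD by UV term stayed in the spread of the fit, so these counts of 0 do not show that KD and WT were alike. The values ran from -0.62 (*PAF1*) to 0.47 (*CDC73*). Within the unirradiated libraries alone, in a fit with 1 residual degree of freedom, *PAF1* (-1.97 ± 0.41, adjusted p = 0.0164), *SUPT6H* (-1.11 ± 0.33, 0.0342) and *RTF1* (-0.99 ± 0.32, 0.045) were lower in KD in edgeR, 3 of 10 where 6.75% of all genes were called downward. Within the irradiated libraries alone 0 of 10 passed, where 0.281% of all genes were called upward, though all 10 values were positive, with a median of 0.24. Over all 8 libraries *TCEA1*, whose product is the TFIIS cleavage factor, had a small value (-0.04) made of pairs of opposite sign. It had 149 and 104 CPM in KD with UV at 40 and 10 min, against 105 and 85.3 CPM in WT with UV. Without UV it had 161 and 63.9 CPM in KD, against 183 and 111 CPM in WT. The KD by time term was called for 0 of 10 members and 0 of all genes (0%), while 11 genes had an unadjusted p under 0.05, and ran from -0.66 ± 0.78 (*ELL*) to 0.78 ± 0.96 (*PAF1*). Its fit has the same limit, with the KD by UV term left in the spread.

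Of 45 other elongation genes, 41 were tested, and 6 were called with a positive and 1 with a negative KD by UV term, where over all genes 5.93% were called positive and 776 of 17782 negative. Of the 41, 35 had a positive term, with a median of 0.93, against 53.1% and 0.14 over all genes. The partners of the PAF1 complex in H2B ubiquitylation, *RNF20* (1.46 ± 0.43, adjusted p = 0.0475 in edgeR) and *RNF40* (1.69 ± 0.44, 0.041), which together form the ligase, were both called, 2 of 7 in that list. *RNF40* had 28.9 and 24 CPM in KD with UV at 40 and 10 min, against 25.3 and 16.2 CPM in WT. Without UV it had 12.5 and 12.7 CPM in KD, against 32.3 and 31.3 CPM in WT. *SUPT5H* (1.58 ± 0.42, 0.041), a DSIF subunit, and *NELFCD* (1.61 ± 0.44, 0.0428), a NELF subunit, were called among 6 pausing factor genes, *SSRP1* (2.16 ± 0.50, 0.0392), a subunit of the FACT chaperone, among 7 chaperone and kinase genes, and *ELOB* (2.07 ± 0.52, 0.0407), which encodes elongin B, among 5. *TCEA3*, a relative of *TCEA1*, was the one with a negative term (-1.78 ± 0.44, 0.0404), at 20.8 and 32.3 CPM in KD with UV at 40 and 10 min against 28.8 and 44.3 CPM in WT with UV, and 36.3 and 60.9 CPM in KD without UV against 11.7 and 29.4 CPM in WT. None of 7 P-TEFb genes, 5 super elongation complex partners or 4 little elongation complex genes passed, and among the 41 tested the count called was 0 in each of the other 5 comparisons.

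Across the 8 libraries the genes whose log2 CPM was most like the mean profile of the 10, among 10909 other genes of at least 10 CPM, were *ENC1* (Pearson r = 0.997), *PNISR* (0.995), *PSMD12* (0.995), *CTPS1* (0.994) and *HPS3* (0.994), with spans of 14 to 44.1 kb. This is a description over 8 libraries that differ in condition and depth. Among the members *AFF4* and *TCEA1* were most alike (0.99), followed by *CTR9* with *SUPT6H* (0.95) and *LEO1* with *ELL2* (0.95).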

How the data were processed

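GRO-seq libraries were made from 8 conditions of MRC5 cells, 1 library each. Per the labels and the submitters' processing notes, the authors aligned reads with BWA 0.5.9 and SAMtools to hg38 and deposited raw counts of reads per transcript span, introns included, with no normalization. Which program counted the reads, whether strand was used, and which annotation was taken is not stated in the labels or the methods. The 8 tables held 41581 transcripts, and 0 of 28 pairs of libraries were identical. One transcript was taken per gene, the longest, and shorter transcripts with a shared start or end gave the reads in parts of a gene.

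Genes were tested with edgeR 4.0.16 (R 4.3.3), quasi-likelihood F-test, two-sided, TMM scaling, low genes removed by filterByExpr (count minimum 10, total minimum 15), with cell, UV and time as additive terms (4 residual degrees of freedom) or with 1 interaction (3), Benjamini-Hochberg adjustment over all 17782 genes and a threshold of 0.05. The tests were also run on simulated data with 200 changed genes, in which only the tested term changed. In the real libraries the spread comes from terms left out of the fit, so that run does not show how the tests behave here. Ratios of 2 libraries carry exact binomial 95% intervals, which cover counting error only since the reads have no molecular identifiers. Nothing in the labels says that libraries came from separate cultures, so p-values measure the spread between these libraries. The libraries held 10.2 to 21.1 M reads over genes. Limma 3.58.1 (voom) and DESeq2 1.42.0 were alternatives, as were RLE scaling, library totals, no filter, the shortest transcript, each library left out, and subsets of libraries. TMM scaling after the filter was added after seeing the data.

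The members and the lists of other elongation genes were chosen with earlier results of these data known. All 10 members were named in every comparison, of other elongation genes the called ones, up to 3 per comparison and direction of each list, and of the rest the 5 most like the members' mean profile, *ZFAS1* and markers of 4 cell types. The level relative to silent genes was planned as a median over olfactory receptor genes, of which the tables held 1. *OR51B5*, *SDF2* and *B3GALT2* were named as context after their values were seen.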

Additional observations from a re-analysis of the deposited data

Results flagged for a closer look

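For *PAF1* the difference between KD and WT was not the same with and without UV, with a KD by UV term of 2.82 ± 0.61 on the log2 scale (edgeR adjusted p = 0.0392), positive in all 16 fits run. For *SUPT6H* the same term was 1.43 ± 0.43 (edgeR adjusted p = 0.0492), also positive in all 16. No group holds 4 or more samples, so no library was compared with others of its group.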

How the results depend on the processing

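Beside the main count of 92, genes called for 40 over 10 min numbered 392 with RLE scaling, 2 with library totals, 1628 with DESeq2, 22 with limma-voom, 162 without a filter, 827 with the shortest transcript, 26 with scaling after the filter, 4738 without UV alone and 3175 with UV alone, and 0 to 1918 with 1 library left out. Members called there were 2 with DESeq2, 1 with the shortest transcript, 5 without UV alone and 4 with UV alone, and 0 to 2 with 1 library left out. For UV over no UV, 1357 genes (1 member) were called in KD alone and 60 in WT alone, and 0 to 2 with 1 library left out. For KD over WT, 2830 genes (3 members) were called without UV alone and 179 with UV alone, and 0 to 2 with 1 library left out. For the KD by UV term, beside 1055 positive and 776 negative, 4875 genes were called with RLE scaling, 2919 with library totals (920 positive and 1999 negative), 5026 with DESeq2 and 3832 with the shortest transcript (887 positive and 2945 negative), and 8 to 6118 with 1 library left out, fewest without KD without UV at 10 min and most without WT without UV at 10 min. Members called were 3 with RLE scaling and with DESeq2, 1 with library totals, without a filter, with the shortest transcript and with scaling after the filter, and 0 to 5 with 1 library left out. The KD by time term had 1 call with RLE scaling and the UV by time term 0 to 1 with 1 library left out. Changes of sign in 40 over 10 min were *PAF1* (-0.27 without UV alone, -0.31 to 1.01 with 1 library left out) and *CDC73* (-0.018 with library totals, -0.24 with UV alone, -0.16 to 0.30 with 1 library left out). The KD by UV term of *CDC73* ranged from -0.95 to 0.21 with 1 library left out. For *PAF1*, UV over no UV was -1.17 in WT alone and -0.28 to 0.96 with 1 library left out, KD over WT 0.71 with UV alone and -1.17 to 0.030, the UV by time term -0.41 to 2.64 and the KD by time term -1.38 to 1.77. The KD by time term of *ELL* ranged from -1.32 to 0.26. Scaling to library totals moved the median of all genes to -0.24 in 40 over 10 min (-0.09 with TMM), -0.05 in the KD by UV term (0.14), 0.45 in the UV by time term (0.29) and -0.02 in the KD by time term (0.19), and RLE scaling moved the last pair to 0.11 and 0.01. Causes of these shifts were not tested, beyond the smaller number of libraries where some were left out. With the density of *OR51B5* subtracted, 1 of 120 single ratios changed sign, *ELL* in UV over no UV for KD at 40 min (-0.14 before, 0.18 after). Sizes moved by up to 2.37 on the log2 scale, most in *LEO1*, and in *RTF1* 40 over 10 min in KD without UV became 2.41 in place of 1.02. Some *LEO1* ratios could not be given since nothing was left. No paired analysis was possible because each condition has 1 library and the labels give no replicate numbers. Counts as low as 42 reads (*PAF1*) limit single ratios, and 1 library a condition limits every test.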
